A study of Mus musculus with 9 samples.

Results

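The T-box genes Tbx2, Tbx3 and Tbx5 were examined in HOXA13 and HOXD13 CUT&RUN peak lists of mouse distal forelimb cells. A peak was counted for a gene when its summit lay in the gene body or within 150 kb on either side (mm10 coordinates, GENCODE annotation). Peak intervals of the 9 lists that shared at least 1 bp were merged into sites, which gave 150 sites in the windows of these 3 genes, of 187006 sites on the autosomes other than chromosome 2 and on X. The Tbx2 window on chromosome 11 held 63 sites, and the Tbx3 and Tbx5 windows on chromosome 5 held 59 and 63. The latter windows overlap and had 35 sites in common, so their values are not independent.

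In CUT&RUN an antibody brings a nuclease to a DNA-binding protein, and the fragments cut free around it are sequenced. Wild-type (wt) embryos of the B6CBAF1 strain were used at E12.5, with 3 libraries for HOXA13 and 3 for HOXD13. The II1 T-DOM 542 line (542), 1 founder line homozygous here for a single copy of the digit enhancer II1 with a promoter and lacZ inserted near the HoxD cluster on chromosome 2, of the same strain was used for 2 libraries of HOXA13 at E12.5 and for 1 of HOXD13, whose label gives E11.5. Embryos were pooled for each library, and wt HOXD13 replicate 3 is described as a reanalysis of an earlier sample. Peak lists hold no expression values, so the tissue label could not be checked with markers.

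T-box proteins are transcription factors that bind DNA through a shared domain. Tbx5 is needed to start forelimb outgrowth, and loss of 1 copy in humans causes Holt-Oram syndrome of the heart and arm. Tbx2 and Tbx3 encode close relatives that act mostly as repressors, are expressed at the anterior and posterior margins of the limb bud, and take part in digit patterning. Tbx3 and Tbx5 are neighbours, as are Tbx2 and Tbx4, the gene of hindlimb outgrowth. HOXA13 and HOXD13 are homeodomain factors of the digit-forming territory that bind TAAA sequences.

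Sequence at 5 of the sites called in every list is shown first, because each of the 9 lists called them. The consensus searched was CCNATAAA, CCNGTAAA, CTNATAAA or CTNGTAAA, where N is any base, on both strands of the 100 bp centred on the median summit. On a strand, a position can match only 1 of these 4 forms. The sites printed are the leading site of each window, by the median rank of their fold enrichment, and some further sites from the same ranking that hold a match. Other sites called in all 9 lists also hold a match and are not printed, among them chr5:119884202-119885257. Sequences are from the plus strand of GRCm38, the assembly of mm10, 5′ to 3′, with matches to the consensus or its reverse complement in capitals.
Tbx2 site at −92800 bp (chr11:85739701-85739800): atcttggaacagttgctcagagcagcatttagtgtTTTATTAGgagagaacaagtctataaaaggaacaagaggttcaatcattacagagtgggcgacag
Tbx2 site at 139940 bp (chr11:85972441-85972540): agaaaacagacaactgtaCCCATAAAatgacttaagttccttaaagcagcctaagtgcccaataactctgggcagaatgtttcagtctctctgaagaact
Tbx3 site at −41981 bp (chr5:119628638-119628737): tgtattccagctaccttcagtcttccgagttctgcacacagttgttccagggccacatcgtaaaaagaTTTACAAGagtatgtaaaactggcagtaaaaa
Tbx5 site at −54136 bp (chr5:119780477-119780576): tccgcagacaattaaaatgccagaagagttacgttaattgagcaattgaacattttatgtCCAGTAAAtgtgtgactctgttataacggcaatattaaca
Tbx5 site at 138633 bp (chr5:119973246-119973345): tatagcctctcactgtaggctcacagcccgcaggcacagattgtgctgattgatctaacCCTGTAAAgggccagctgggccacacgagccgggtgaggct
Positions of sites are distances of the median summit from the nearest transcript start of the gene, negative upstream. The matches in these 5 sequences start between −32 and 18 bp from the median summit.

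The windows were dense in HOX13 peaks. Over the wt HOXA13 lists the Tbx2 window held 37, 27 and 19 intervals in replicates 1, 2 and 3, and over the wt HOXD13 lists it held 10, 32 and 11. The Tbx3 window held 35, 24 and 25 intervals with HOXA13 and 8, 33 and 18 with HOXD13. The Tbx5 window held 37, 26 and 29 with HOXA13 and 10, 40 and 21 with HOXD13. In each window the fewest intervals came from wt HOXD13 replicate 1, the list with the fewest intervals in all. Whole lists ranged from 23939 to 117719 intervals and from 36.9 to 65.5 M read ends (M for mega), as recovered from the deposited values.

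Density was therefore ranked within each list against the windows of 19912 protein-coding genes. The median percentile over the 6 wt lists was 98.7 for Tbx2, 99.4 for Tbx3 and 99.5 for Tbx5. The lowest wt list gave 90.9, 86.8 and 90.6, and the highest 99.8, 99.7 and 99.7. In wt HOXA13 replicate 1 the Tbx2 window held 120 intervals per Mb, where the median gene window held 44.4. The order of the 3 genes changed between lists, and neighbours in this order did not differ beyond the spread over lists. With intervals of a fold enrichment of at least 5 the median percentiles were 90.4, 88.9 and 95.8.

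**Figure D1:**
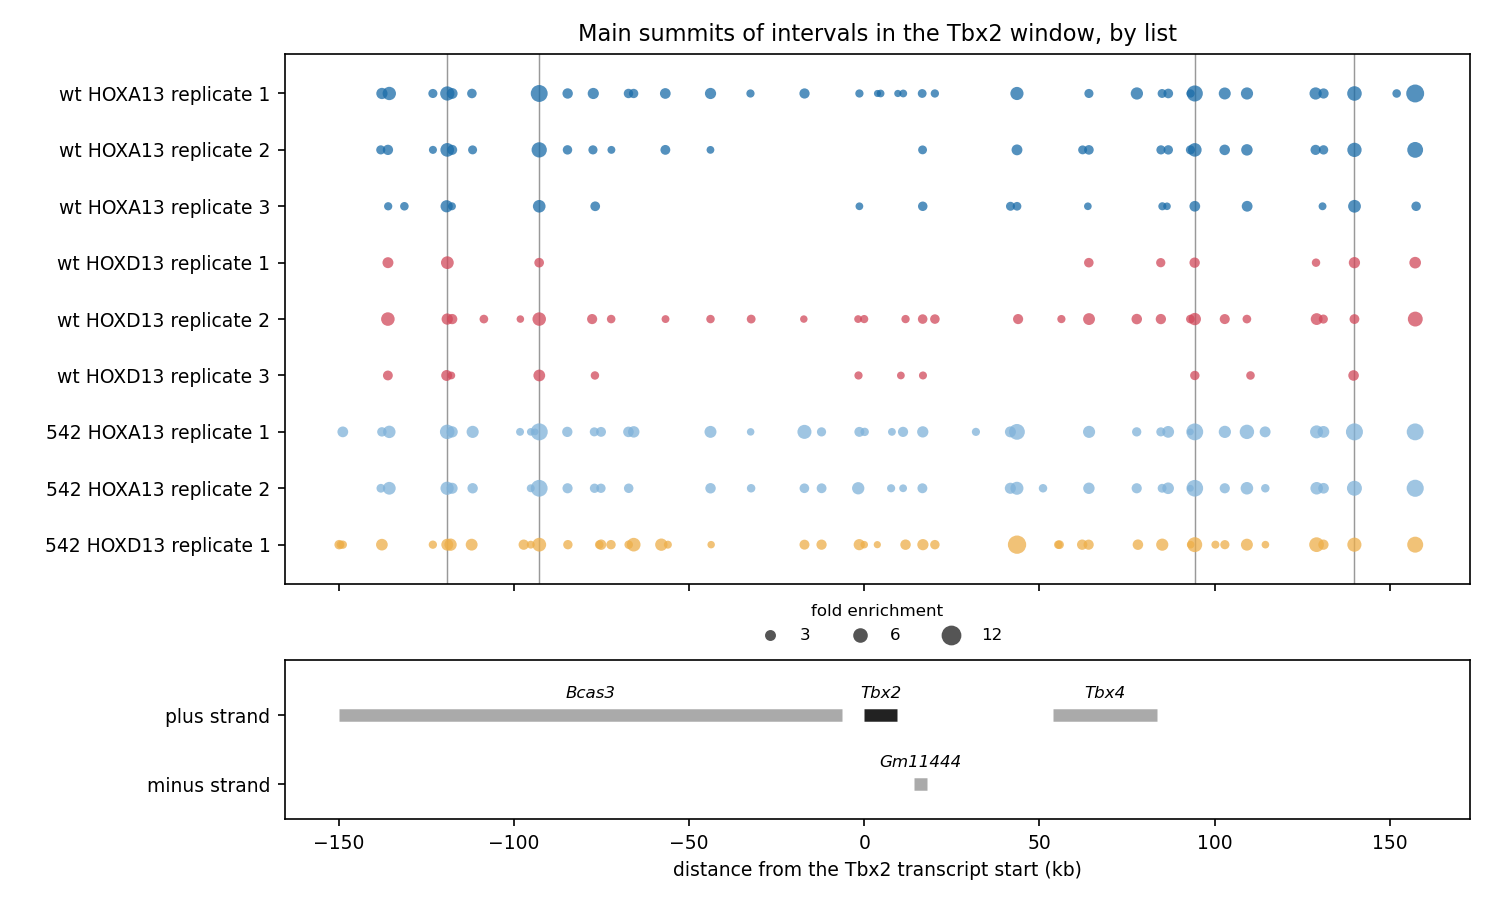
Main summits of the intervals in the Tbx2 window by list (rows), against distance from the Tbx2 transcript start in kb. Dot area is proportional to fold enrichment, grey lines mark the 4 sites called in all 9 lists, and bars below are protein-coding genes by strand; those 4 sites lie outside Tbx2.

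**Figure D2:**
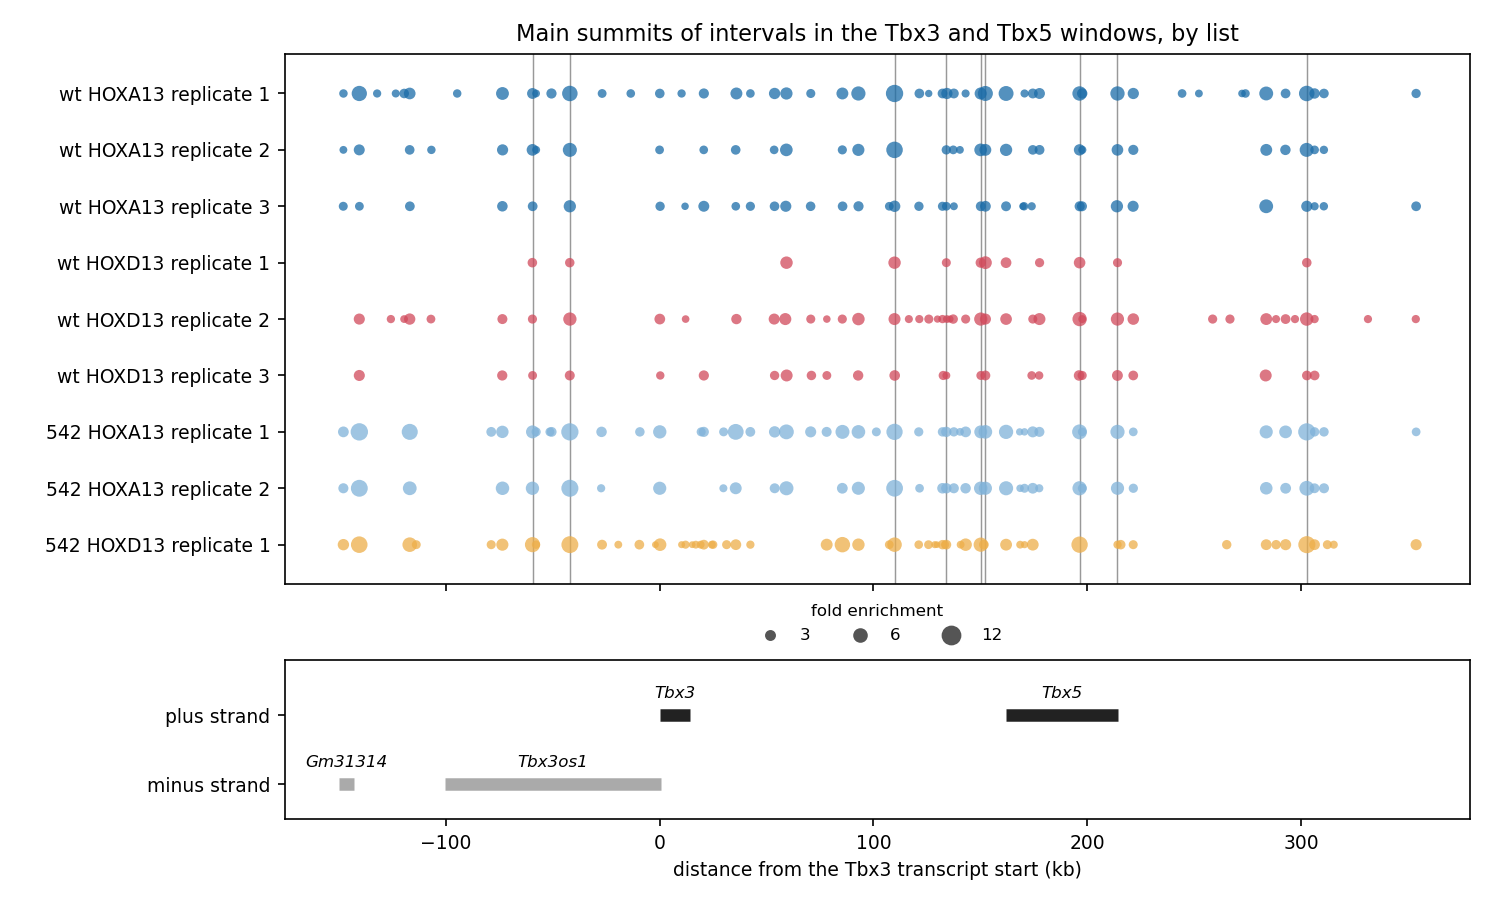
Main summits in the Tbx3 and Tbx5 windows by list (rows), against distance from the Tbx3 start in kb. Dot area is proportional to fold enrichment, bars below are the genes named, and grey lines mark 9 sites called in all 9 lists, of which 4 lie between Tbx3 and Tbx5.

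Most of the sites lay outside the T-box genes themselves, and so did most of each window, which takes in 150 kb on either side of the gene. Shares of the classes below over all sites of the genome were not computed. By class, 73 of the 150 sites were distal intergenic, 52 lay in another gene, 9 at the promoter of another gene, 11 in an intron and 3 in an exon of a member, and 2 at a member promoter. Of the 63 sites in the Tbx2 window 33 lay in another gene, 26 of them in Bcas3, whose body fills most of the upstream flank. Between Tbx3 and Tbx5, a gap of 147943 bp, there were 33 sites. Of the intronic sites 3 lay in Tbx2 and 8 in Tbx5, the longest of these genes, where 1 of the 8 sits at an upstream transcript start described further on. The exonic sites were 2 in Tbx3 and 1 in Tbx5.

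Of the 150 sites 13 (8.67%) were called in all 9 lists, against 6.40% of all sites of the genome. In at least 8 lists there were 29 sites (19.3%, against 10.7% of all sites). At the other end, 51 sites (34%) were called in 1 list, against 50.0% of all sites. The 542 HOXD13 list, the longest, alone called 23 of the 150 sites (15.3%, against 19.3%), and 39 sites were called in 542 lists only (26%, against 34.3%). Of the 16 sites called in exactly 8 lists, 10 were lacking in wt HOXD13 replicate 1, 4 in wt HOXD13 replicate 3 and 2 in the 542 HOXD13 list. Wt HOXD13 replicate 1 is the shortest list. The same split over all sites of the genome was not computed, so it is not read as a trait of these windows.

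The median of the within-list percentile of fold enrichment was 20.4 over sites called in 1 list and 86.1 over sites called in all 9. Fold enrichment is the pileup of read ends at the summit relative to local background, and its percentile is the share of the list's intervals with a lower value.

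Among the 111 sites called in any wt list, 63 (56.8%) were called with both antibodies, against 43.6% of such sites in the genome. HOXA13 lists alone called 33 (29.7%, against 37.1%) and HOXD13 lists alone 15 (13.5%, against 19.3%). All 6 wt lists called 15 sites (13.5%, against 10.5%). Without wt HOXD13 replicate 1, the shortest list, the remaining wt lists had 28 sites in common and the remaining 8 lists had 23. The shares over all sites of the genome were not recomputed for this omission, so it is not read as a trait of these windows.

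Sites found with 1 antibody throughout were few. All 3 wt HOXA13 lists and no wt HOXD13 list called 3 of the 111 sites (2.70%, against 1.37%), and 1 fell to each gene. The reverse was seen at 0 of 111 sites, which allows a share of up to 2.70%, against 0.0285% of such sites in the genome. The 3 HOXA13 sites were weak. In the Tbx2 window chr11:85918922-85919722, past the end of Tbx4, had fold enrichments of 3.59, 3.40 and 2.23 in wt HOXA13 replicates 1, 2 and 3. In the Tbx3 window chr5:119522262-119522988, in an intron of the lincRNA gene Gm31314, had 2.77, 2.37 and 3.10. In the Tbx5 window chr5:119981014-119981712, downstream of the gene, had 3.54, 2.70 and 2.73. Both 542 HOXA13 lists called these 3 sites as well, and the 542 HOXD13 list called the one in Gm31314, at 4.98. Leaving out 1 wt library changed this count of 3 to as many as 10 (without wt HOXD13 replicate 2), with 8 without wt HOXA13 replicate 3 and 5 without wt HOXA13 replicate 2. The share over all sites of the genome was not recomputed for these omissions.

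**Figure D3:**
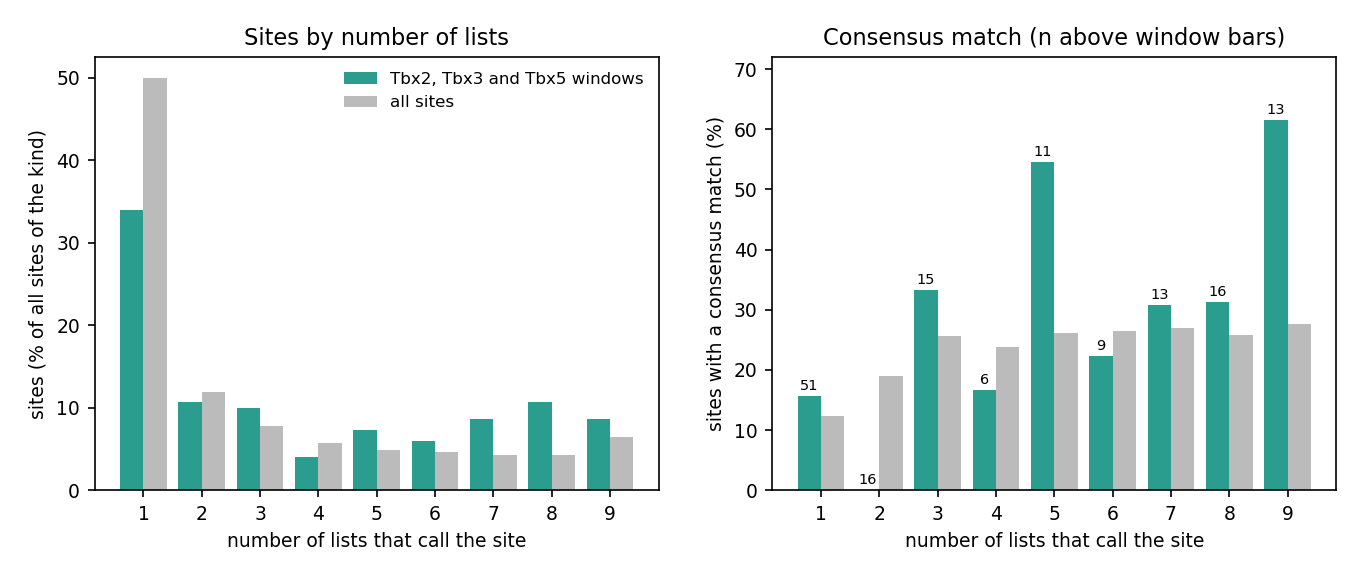
Left, sites of the Tbx2, Tbx3 and Tbx5 windows and all sites of the genome by the number of lists that call them, in percent. Right, percent of these sites with a consensus match in 100 bp, with the number of window sites above each bar. Of the window sites called in 9 lists 8 of 13 hold one, against 27.7% of all such sites.

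In the Tbx2 window 4 sites were called in all 9 lists. The leading site, chr11:85739157-85740504, lay in an intron of Bcas3, 92800 bp before the Tbx2 start, and its sequence is the first printed above. Its fold enrichment was 10.998, 8.95 and 6.15 in wt HOXA13 replicates 1, 2 and 3 and 3.58, 6.996 and 5.33 in wt HOXD13 replicates 1, 2 and 3. It was 11.1 and 10.8 in the 542 HOXA13 lists and 7.30 in the 542 HOXD13 list. The HOXA13 lists were high and overlapped the HOXD13 lists in fold enrichment, while wt HOXD13 replicate 1 was the lowest. That value rests on a pileup of 27 read ends (95% interval, exact Poisson, 17.8 to 39.3), against 334 (299 to 372) in wt HOXA13 replicate 1.

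The summits of this site agreed within 38 bp across the 9 lists, the tightest of the 15 sites called in all 6 wt lists, which had a median spread of 205 bp. Also in a Bcas3 intron lay chr11:85712775-85714042, where fold enrichment ran from 4.59 to 8.06 over the 9 lists. The other two sites lay beyond Tbx4 in intergenic sequence. At chr11:85926328-85927425 fold enrichment ran from 3.39 in wt HOXD13 replicate 3 to 10.9 in 542 HOXA13 replicate 1. At chr11:85971937-85972773, the second sequence above, it was 8.14, 7.87 and 6.28 in the wt HOXA13 lists and 4.88, 3.70 and 4.30 in the wt HOXD13 lists. The antibodies did not overlap in fold enrichment there. How often this order of fold enrichment occurs over all sites was not computed, and the lists differ in depth.

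Chosen after its values were seen, chr11:85989064-85990441 at 157285 bp had the highest median percentile among the sites of this window called in at least 8 lists, 95.3. It was called in 8, at fold enrichments of 12.3, 9.62 and 3.47 in the wt HOXA13 lists and 5.20 and 8.53 in wt HOXD13 replicates 1 and 2, and was not called in wt HOXD13 replicate 3.

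Besides 4 sites in the gap towards Tbx5, 2 sites of the Tbx3 window were called in all 9 lists, both in introns of Tbx3os1, an antisense gene that begins at the Tbx3 promoter and runs upstream. At chr5:119627809-119629742, 41981 bp before the Tbx3 start, fold enrichment was 9.23, 7.60 and 5.79 in the wt HOXA13 lists and 3.44, 6.79 and 3.82 in the wt HOXD13 lists. It was 11.4 and 11.2 in the 542 HOXA13 lists and 10.997 in the 542 HOXD13 list. The 542 lists were thus all above the wt lists. Its summits agreed within 55 bp.

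The second site, chr5:119610731-119611851, was weaker, with 4.57, 5.29 and 3.65 in the wt HOXA13 lists and 3.51, 3.21 and 3.03 in the wt HOXD13 lists. The 542 lists were again higher, at 6.46 and 6.82 with HOXA13 and 8.83 with HOXD13. The share of all sites of the genome with 542 lists above wt lists was not computed. The 542 HOXD13 library differs in stage from the other libraries and is not replicated, so genotype and stage cannot be told apart for it. Chosen after its values were seen, chr5:119529662-119530747 at −140442 bp was called in 8 lists at a median percentile of 87.2, and wt HOXD13 replicate 1 did not call it.

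By window, the sites called in all 9 lists were 4 of 63 for Tbx2 (6.35%), 6 of 59 for Tbx3 (10.2%) and 7 of 63 for Tbx5 (11.1%). The 4 sites in the gap lie in both the Tbx3 and the Tbx5 windows and are described under Tbx5, whose start is nearer. The leading site of Tbx5, chr5:119779569-119781012, lay in the gap between Tbx3 and Tbx5, 54136 bp before the Tbx5 start. Its fold enrichment was 11.502, 10.5 and 5.01 in wt HOXA13 replicates 1, 2 and 3 and 5.92, 5.54 and 4.32 in the wt HOXD13 replicates, with 10.2 and 10.8 in the 542 HOXA13 lists and 8.06 in the 542 HOXD13 list. HOXA13 replicate 3 lay within the HOXD13 range, and the other HOXA13 lists above it.

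Downstream of Tbx5 the site chr5:119972640-119973738 had 9.25, 7.55 and 4.83 with wt HOXA13 and 3.48, 6.93 and 3.63 with wt HOXD13. The pileup in wt HOXD13 replicate 1 was 18 read ends there (95% interval, exact Poisson, 10.7 to 28.4), so its rank in that list is imprecise. In a Tbx5 intron, chr5:119866331-119867516 had 8.01, 4.98 and 3.91 with wt HOXA13 and 5.14, 7.91 and 4.25 with wt HOXD13, and the antibodies overlapped fully.

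The 4th named site of the gene, chr5:119884202-119885257, had its median summit in the 3′ UTR in the last exon of Tbx5. Fold enrichment there was 7.86, 5.21 and 5.78 with wt HOXA13, 3.18, 6.69 and 4.53 with wt HOXD13, 7.73 and 6.67 in the 542 HOXA13 lists and 2.62 in the 542 HOXD13 list. By fold enrichment the 542 HOXD13 list was the lowest, and by percentile within the list wt HOXD13 replicate 1 (20.7) and the 542 HOXD13 list (20.8) were the lowest. It holds the match CCAGTAAA on the minus strand, the letters also found at the leading Tbx5 site.

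**Figure D4:**
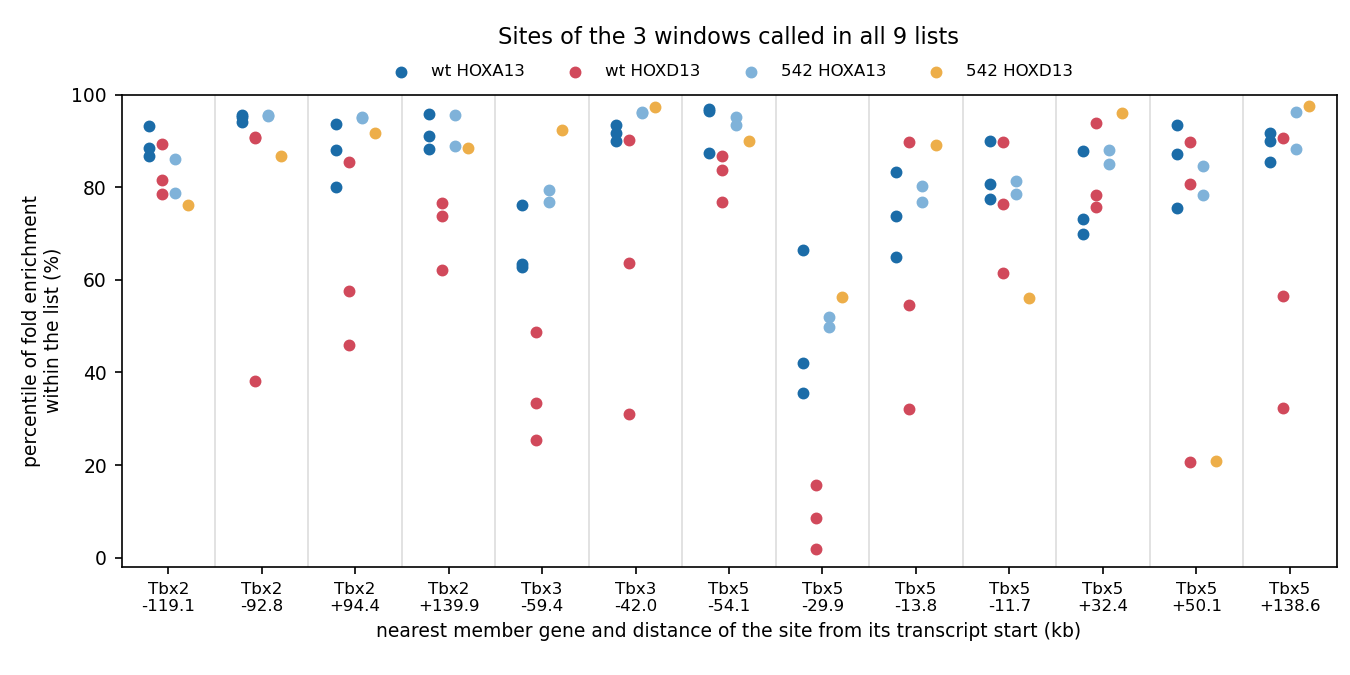
Percentile of fold enrichment within the list (vertical axis, %) at the 13 sites called in all 9 lists, with 1 point per list coloured by group. The horizontal axis names the nearest member gene and the distance in kb; wt HOXA13 lists lie above wt HOXD13 lists at 5 of the sites.

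To compare antibodies at 1 site, the within-list percentile was used, because the lists differ in depth. At 5 of the 15 sites called in all 6 wt lists every wt HOXA13 percentile exceeded every wt HOXD13 percentile (33.3%, against 12.6% of all such sites of the genome). The reverse was seen at 0 of 15, which allows a share of up to 20%, against 2.92% of all such sites. For the 5 of 15 sites the 95% binomial interval was 11.8 to 61.6%, which includes 12.6%. At the leading Tbx2 site the percentiles were 95.6, 94.1 and 95.2 with HOXA13 and 38.2, 90.9 and 90.6 with HOXD13. At the leading Tbx5 site they were 96.4, 96.8 and 87.4 against 86.7, 83.6 and 76.9. The groups came close to each other at both sites.

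The count of 5 rests on few lists. Leaving out 1 wt library gave 5 to 9 sites, while the share of all such sites in the genome moved between 13.6% and 33.6%. The count reached 9, at 33.6%, without wt HOXD13 replicate 2.

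The antibody comparison asked whether HOXA13 and HOXD13 lists placed different shares of their intervals in these windows. Per 10000 intervals of the list, the Tbx2 window had 4.06 ± 0.669 with wt HOXA13 (SD, n = 3) and 3.76 ± 0.719 with wt HOXD13 (SD, n = 3). The Tbx3 window had 4.16 ± 0.176 and 4.14 ± 0.735, and the Tbx5 window 4.58 ± 0.420 and 4.99 ± 0.729. In all 3 windows the groups overlapped. Groups that did not overlap were found in 2.56% of 19060 gene windows with HOXA13 above HOXD13 and in 9.14% with HOXA13 below.

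The log2 difference, HOXA13 minus HOXD13 and with 0.5 added to each share, was 0.10 for Tbx2 (two-sided exact permutation p = 0.5, Benjamini-Hochberg adjusted 0.978), 0.02 for Tbx3 (exact permutation p = 0.9, adjusted 1) and −0.11 for Tbx5 (exact permutation p = 0.5, adjusted 0.978). These differences were smaller than the spread between replicates. With 3 against 3 libraries the test cannot go below 0.1, and 0 of 19060 windows had an unadjusted p under 0.05. The middle 90% of all windows ran from −0.49 to 0.46. The signs for Tbx2 and Tbx3 did not hold, since leaving out wt HOXD13 replicate 3 gave −0.05 for Tbx2 and leaving out wt HOXD13 replicate 1 gave −0.11 for Tbx3. With interval counts that were not scaled to the list, the difference for Tbx5 turned to 0.56.

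**Figure D5:**
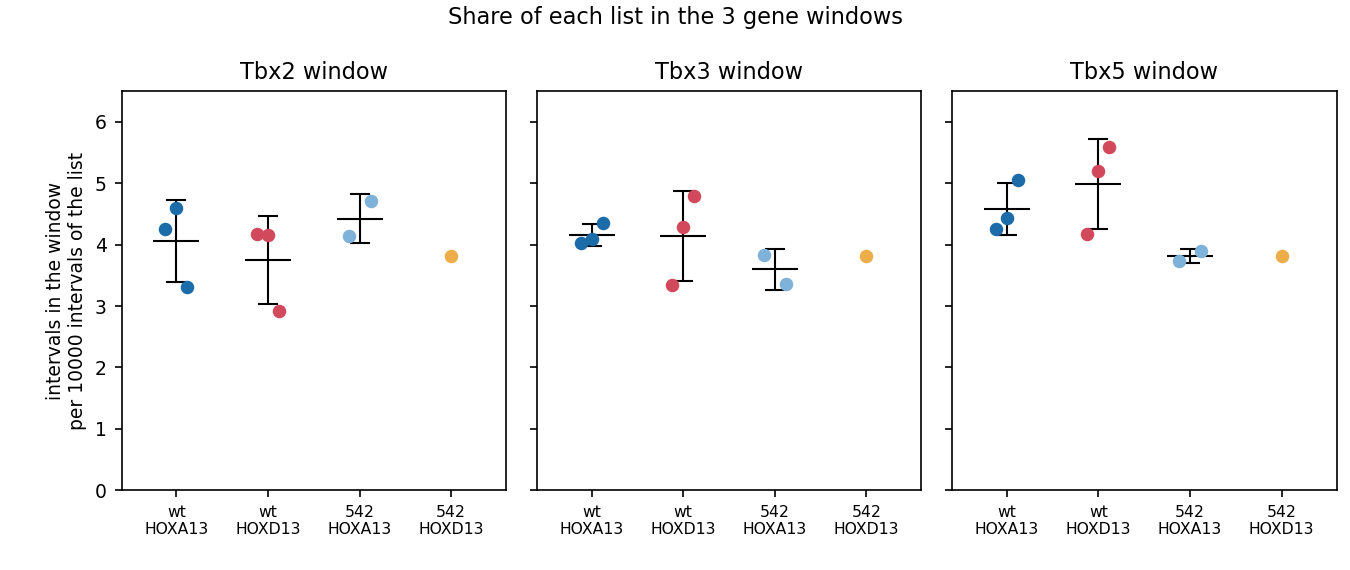
Intervals in each gene window per 10000 intervals of the list (vertical axis, from 0), 1 point per list, with mean and SD for groups of 2 or 3 lists. Both 542 HOXA13 lists lie below the wt HOXA13 lists for Tbx3 and Tbx5, and the wt antibody groups overlap in each window.

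For HOXA13 the wt lists were also set against the 542 lists. The Tbx3 window had shares of 4.03, 4.09 and 4.36 per 10000 intervals in the wt lists and 3.83 and 3.36 in the 542 lists. The Tbx5 window had 4.26, 4.43 and 5.06 against 3.73 and 3.90. In both windows the wt lists lay above the 542 lists, as they did in 15.3% of 19000 gene windows, and the 2 windows have sites in common. The Tbx2 window had 4.26, 4.60 and 3.31 against 4.14 and 4.71, and the groups overlapped; 8.68% of windows had wt below 542.

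The log2 difference, wt minus 542, was 0.19 for Tbx3 and 0.23 for Tbx5 (two-sided exact permutation p = 0.1 for each, the smallest that 3 against 2 allows, Benjamini-Hochberg adjusted 0.870) and −0.12 for Tbx2 (exact permutation p = 0.7, adjusted 1). Of the 19000 windows 0 had an unadjusted p under 0.05. The direction for Tbx3 turned among intervals of a fold enrichment of at least 5, where the log2 difference was −0.10, and in the top 20000 intervals of each list, where it was −0.24. With unscaled interval counts it was −0.16 for Tbx3 and −0.11 for Tbx5. The wt and 542 lists were mapped on genomes that differ on chromosome 2, so genotype and mapping genome cannot be told apart. The replicates are pools of embryos, and p-values measure the spread between these libraries.

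Summits at the promoters of the 3 genes were counted next. A promoter was taken as 1000 bp on either side of a transcript start of GENCODE basic. At Tbx2 a summit was called in 3 of 9 lists, at fold enrichments of 2.59 in wt HOXD13 replicate 2, 2.70 in 542 HOXA13 replicate 1 and 2.19 in the 542 HOXD13 list. No wt HOXA13 list called it, and its median percentile was 16.6. Within 2500 bp of the start 4 wt lists had a summit. A neighbouring site at −1433 bp, in an intron of 2610027K06Rik, was called in 7 of 9 lists, wt HOXA13 replicates 1 and 3 among them, at fold enrichments of 2.31 to 5.83.

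At Tbx3 a promoter summit was called in 8 of 9 lists, in the site chr5:119670275-119671279. Fold enrichment was 3.53, 2.94 and 3.35 in the wt HOXA13 lists, 4.43 and 2.70 in wt HOXD13 replicates 2 and 3, 6.82 and 6.66 in the 542 HOXA13 lists and 6.11 in the 542 HOXD13 list. The 3 lists of the 542 line were higher than the wt lists that called it, and wt HOXD13 replicate 1 did not call it. How often this order occurs over all sites was not computed, and the lists differ in depth, so it is not read as a trait of Tbx3. The annotated beginning of the antisense gene Tbx3os1, at 119671365, lies just past the end of this site. For comparison, 20.2% of protein-coding genes had a promoter summit in all 6 wt lists and 20.0% in all 9, and neither Tbx2, Tbx3 nor Tbx5 did.

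At Tbx5 the result depended on which transcript start was used. At the single start of GENCODE basic (119834663) 0 of 9 lists had a promoter summit. The same held for 33.5% of protein-coding genes. The comprehensive GENCODE annotation also places a start at 119832668, the annotated beginning of the gene. RefSeq holds that start as a predicted one, and its curated start is 119834663, the same as in GENCODE basic. This alternative was chosen after the values were seen. A summit lay within 1000 bp of it in 8 of 9 lists, in the site chr5:119832043-119833688.

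The summits at this upstream Tbx5 start were 3 to 15 bp from it. Fold enrichment was 8.56, 5.78 and 3.76 in wt HOXA13 replicates 1, 2 and 3, 4.42 and 5.22 in wt HOXD13 replicates 1 and 2, 7.80 and 7.65 in the 542 HOXA13 lists and 5.37 in the 542 HOXD13 list. Wt HOXD13 replicate 3 did not call it. The lowest of these rests on a pileup of 53 read ends (95% interval, exact Poisson, 39.7 to 69.3) and the highest on 146 (123 to 172).

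Of the 11 intronic sites of the members 1 was called in all 9 lists, and of the 3 exonic sites 1 was. The 3 intronic sites of Tbx2 were called in 1 or 2 lists each, at fold enrichments of 1.93 to 2.55. In Tbx3 both exonic sites lay in coding sequence and were called in 2 and 3 lists. In Tbx5, besides the site at 32388 bp described above and the upstream start, the introns held sites at 10497 bp in 8 lists (fold enrichment 2.57 to 5.37) and at 13614 bp and 33609 bp in 7 lists each. Weaker intronic sites of Tbx5 lay at 4562 bp in 3 lists (2.03 to 2.37), at 5893 bp in 1 list (2.102) and at 6637 bp in 5 lists (1.98 to 3.12).

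Matches to the HOX13 consensus were counted over all sites. Of the 150 sites 39 (26%) held a match within 100 bp, against 18.3% of all sites. Of the 15 sites called in all 6 wt lists 8 (53.3%) held one, against 27.4% of all such sites. By gene window these were 2 of 5 for Tbx2, 4 of 7 for Tbx3 and 5 of 8 for Tbx5, where sites in the overlap count for both. The site called in all 9 lists at chr5:119804536-119805147, at −29925 bp of Tbx5, held CTTATAAA, and that at chr5:119820578-119821370 held CTCGTAAA. Neither member promoter site held a match.

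In a window of 200 bp 10 of the 15 sites held a match, against 36.6% of all such sites, and in 50 bp 4 did, against 15.8%. With the core letters ATAAA or GTAAA alone 11 of the 15 held a match, against 65.6%. The member sites had a higher GC content than sites of the genome as a whole, with a median over 200 bp of 49.25% against 43.5% over all sites and 45.5% against 44% over sites called in all 6 wt lists. The part of base composition in these shares was not tested.

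Among the other T-box genes, 14 in all, 1 had a promoter summit in all 6 wt lists, Mga, which encodes a T-box protein that partners MAX. The 542 lists were not used for Mga, which lies on chromosome 2 past the insertion of the 542 line. In 1 to 5 wt lists there were 7, and 6 had none in any wt list, among them Tbx1 and Tbx15. Of all protein-coding genes 63.8% had a promoter summit in at least 1 wt list. Tbx4, which lies inside the Tbx2 window, had a promoter summit in 5 wt lists and 8 of 9 lists, at fold enrichments of 2.25 to 5.62, where Tbx2 itself had 1 and 3. Per 10000 intervals, the median over wt lists was 4.17 in the Tbx2 window, 4.19 for Tbx3 and 4.74 for Tbx5, against 0.217 for Tbx22 and 3.16 for T (Brachyury), the lowest of the other windows and the highest after that of Tbx4, which overlaps Tbx2's.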

How the data were processed

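The 9 peak lists were deposited by the authors, 1 list per library. Per the study's methods, reads were trimmed with Cutadapt, mapped with bowtie2 (wt on mm10, 542 on a mutant genome that differs on chromosome 2), filtered to a mapping quality of at least 30, and summits were called with MACS2, with no control library. The methods state both that Picard removed PCR duplicates and, in the listed settings, that marked duplicates stayed in the input of MACS2, so whether they were retained is not settled here. Retained duplicates would raise pileups. In the deposited columns, fold enrichment is the ratio of a summit's pileup to its local background. The −log10 p-value and its q-value counterpart were computed by the authors with a Poisson model of that pileup, and the deposited score derives from the −log10 q.

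Summit rows of identical start and end formed 1 interval, and the row with the highest −log10 p gave its main summit. Intervals of all lists were merged with at least 1 bp in common. Pileups were recovered from the deposited fold enrichment and −log10 p, and depth from the lowest background. Poisson intervals and limits of 3 counts cover counting error only and treat counts as independent. Pileups that hold both ends of a fragment, or retained duplicates, would make the Poisson intervals too narrow. Gene models were GENCODE basic on GRCm38. Chromosomes 2, Y and M were left out of backgrounds, since positions on chromosome 2 differ between the mapping genomes.

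Groups and replicate numbers came from titles. The growth protocol gives a single collection day, whereas the 542 HOXD13 title gives E11.5. Window shares were tested by two-sided exact permutation over libraries with Benjamini-Hochberg adjustment over all gene windows. The members and lists were chosen with earlier results of these data known. Named sites were member promoter sites, up to 4 other sites per gene called in all 9 lists by median percentile, and up to 2 per gene found in all lists of 1 wt antibody and none of the other. The replicate numbers were taken to pair libraries for the block, wt HOXA13 with wt HOXD13 and wt HOXA13 with 542 HOXA13. Over 20310 merged top sites, same-numbered wt libraries correlated at r = 0.110, 0.143 and 0.348 for replicates 1, 2 and 3. Crossed numbers gave r = 0.219 (HOXA13 1 with HOXD13 2) and 0.146 (HOXA13 2 with HOXD13 1), and replicate 3 was the one number whose libraries correlated best with each other. The pairing of wt replicates 1 and 2 is thus not borne out by these values. The pairing of wt with 542 libraries was not checked. Scripts were tested on simulated data and used Python 3.11.15 with pandas 2.3.3, numpy 2.4.6, matplotlib 3.10.9, pysam 0.24.0 and scipy 1.17.1.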

Additional observations from a re-analysis of the deposited data

How the results depend on the processing

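Of 223 values recomputed under an alternative, 180 kept their direction or stayed close to the reported value (counts within 1.5 times, percentiles within 1 SD, shares within their 95% binomial interval), 12 reversed and 31 moved further. Sites were merged with other rules, filtered, or counted with fewer libraries. Sites called in any wt list fell from 111 to 31 at a fold enrichment of at least 5, 72 at a −log10 q of at least 5 and 42 in the top 20000 intervals. Sites called in all wt lists were 15, and 6 with a reciprocal overlap of 50%, 9 with main summits within 200 bp and 0 at a fold enrichment of at least 5. Sites called in all 9 lists were 13, and 5 with a reciprocal overlap of 50%, 8 in the top 20000 intervals and 0 at a fold enrichment of at least 5. The 3 sites called in wt HOXA13 lists alone became 1 at a fold enrichment of at least 5, 1 at a −log10 q of at least 5, 0 in the top 20000 intervals and 9 without both replicates 3, which stand apart and were left out together after seeing the data.

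Leaving out 1 wt library at a time gave 15 to 28 sites in all wt lists, 13 to 23 in all lists, 3 to 10 in HOXA13 lists alone, 0 to 1 in HOXD13 lists alone and 5 to 9 sites with HOXA13 percentiles above those of HOXD13. Of these counts, only the last had its share over all sites of the genome recomputed. For the antibody comparison, leaving out 1 library gave log2 differences of −0.046 to 0.23 for Tbx2 and −0.11 to 0.12 for Tbx3. For the genotype comparison it gave −0.21 to 0.00364 for Tbx2.

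The antibody difference of Tbx5 turned to 0.56 with interval counts not scaled to the list, and that of Tbx3 to −0.066 at a −log10 q of at least 5. The genotype differences turned with interval counts (Tbx3 −0.16, Tbx5 −0.11), with every summit row (Tbx2 0.094), at a fold enrichment of at least 5 (Tbx3 −0.10) and in the top 20000 intervals (Tbx3 −0.24). With the replicate number as a block, the genotype difference of Tbx2 was 0.00364. This is the value found without wt HOXA13 replicate 3, which has no 542 library of the same number and drops out of the block. The exact sign-flip permutation test of the block has too few pairs of libraries for any call to change. It therefore cannot show whether the calls depend on the pairing. The causes of the changes in direction were not tested.

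Within 2500 bp a promoter summit was found in 4 wt lists for Tbx2 and 5 for Tbx5, and at a fold enrichment of at least 5 in 0 for Tbx2 and 0 for Tbx3. For Tbx5 the comprehensive GENCODE starts and the RefSeq starts, predicted ones included, each gave 5 wt lists. Window percentiles at a fold enrichment of at least 5 were 90.4, 88.9 and 95.8 for Tbx2, Tbx3 and Tbx5. The share of sites with a consensus match was 15.3% in 50 bp and 60% with the core alone. A site absent from a list may lie under the threshold at that list's depth, above all in wt HOXD13 replicate 1.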

Other observations

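RefSeq predicts a further Tbx5 transcript start at 119796514, and the site chr5:119796207-119796702 lay over it. It was called in wt HOXA13 replicate 1 at a fold enrichment of 2.07, in wt HOXD13 replicate 2 at 3.17 and in the 542 HOXD13 list at 2.97, with summits 13 bp before, 34 bp after and 115 bp before that start. This site was chosen after its values were seen.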
